A study of Mus musculus with 42 samples.

Results

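Interneurons of the lateral geniculate nucleus were compared with parvalbumin interneurons of cingulate cortex, both picked from mice of the G42 line, in which GFP marks a set of GABA neurons. The 2 groups hold 3 arrays each, 6 of the 42 arrays of the series, and were taken from the sample labels: G42_LGN for the geniculate cells and G42_Cg for the cortical cells. The cells of G42_LGN are labelled only as GFP-expressing interneurons, those of G42_Cg as parvalbumin-positive as well. All 6 samples came from mice of mixed G42 and C57BL/6j strain, all male. The G42_LGN mice were 60, 66 and 63 days old and gave 38, 38 and 48 cells. The G42_Cg samples came from mice of 67 and 68 days (51 cells), 65 days (35 cells) and 78 and 79 days (43 cells), so the samples with paired ages pooled animals. Each sample was sorted by hand under fluorescence from a dissociated, microdissected slice, and its RNA was amplified before it was hybridised to a single-colour Affymetrix mouse array.

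The series was made to profile neuron types of the mouse forebrain, and it holds 14 groups of 3 arrays. A further question here was which geniculate differences also held against every other interneuron group. Those groups were GIN_Cg and GIN_Hip, labelled somatostatin-positive GFP interneurons of cingulate cortex and hippocampus in the GIN line. The others were G30_Cg and G30_SS, labelled GFP interneurons of cingulate and somatosensory cortex in the G30 line, with no peptide named. These 12 samples were also male, from mice of 57 to 78 days, all mixed with C57BL/6j apart from array 3 of GIN_Cg and array 1 of G30_Cg, whose labels name the transgenic line alone. G42_LGN is the only thalamic group, so brain region and cell type cannot be told apart in any of these comparisons. The CT6 and YFPH groups and the amygdala group G30_Amy, also used below, were not matched to G42_LGN in age. The CT6 mice, most YFPH mice of known age and the mouse of G30_Amy array 1 were older than every G42_LGN mouse. No age was available here for array 3 of YFPH_Cg or for the homogenates. The part of age in the results was not tested.

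Geniculate interneurons are the local GABA neurons of the visual thalamus: they receive retinal input and inhibit the relay neurons that project to cortex, in part through dendrites that themselves release GABA. In the mouse they are known to arise outside the telencephalon, from midbrain and diencephalic progenitors that use GATA, TAL and OTX factors. Cortical parvalbumin interneurons arise in the medial ganglionic eminence of the telencephalon under DLX, NKX2-1, LHX6 and SOX6, fire at high rates and inhibit pyramidal cells near the soma.

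Levels below are log2 of the deposited intensity plus 16, a scale on which 1 unit is a doubling and on which differences of dim genes are understated. Each gene is read by its brightest probe set that maps to a single gene, differences are G42_LGN minus G42_Cg ± standard error, and folds are their antilogs. Where the dimmer group lay below an intensity of 199, the 25th percentile of all values, no fold is given, since the size of the difference then depends on background and on the added 16. Tests were limma's, with p-values adjusted by Benjamini-Hochberg over all 12393 genes, and genes below 0.05 are termed called. Levels are compared between samples and not between genes. An array reads a pool of cells, so fewer cells with a transcript and less of it per cell cannot be told apart.

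The labels were checked against marker genes. Gad1, the main enzyme of GABA synthesis, read 11.63, 11.78 and 11.62 in G42_LGN and 11.74, 11.77 and 11.93 in G42_Cg. It was bright in all 6 arrays, the groups overlapped, and the difference was -0.13 ± 0.33 (adjusted p = 0.818). Gad2 differed by -0.01 ± 0.19 and the vesicular GABA transporter Slc32a1 by 0.21 ± 0.29 (adjusted p = 0.977 and 0.658). Of 4 GABA synthesis and transport genes tested 1 was called, as lower (25%, against 9.51% of all genes). It was Abat, which breaks GABA down (-0.45 ± 0.16, adjusted p = 0.0466). The Abat call was lost in 13 of 22 alternatives, and its second probe set differed the other way. The calcium buffer Pvalb read 8.98, 9.64 and 9.27 in G42_LGN and 13.39, 13.39 and 13.47 in G42_Cg. The cortical arrays were high, as their label says, and the geniculate arrays lay near GIN_Cg (9.25 ± 0.36, SD, n = 3) and G30_Cg (8.996 ± 0.08). The geniculate markers Chrna6, Syt9, Lmo1 and Cplx3, which were named for these cells from these same data, were high in all 3 G42_LGN arrays and are described below.

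Markers of cells that a geniculate or cortical dissection could add mostly did not differ by the test. Slc17a6 (vesicular glutamate transporter), Tcf7l2, Gbx2 and Prkcd, which mark thalamic relay neurons, differed by -0.003, 0.27, 0.10 and 0.16, none called. Of the 13 relay neuron markers tested, 3 were called higher, Tnnt1, Rgs16 and Lef1, and none lower, and the summed intensity of the list ran from 8516 to 9624 in G42_LGN and from 5357 to 6414 in G42_Cg. That is 23.1% of the list called higher, against 11.8% of all genes, while 9.51% of all genes were called lower. Rgs16 and Tnnt1 were also bright in the cortical group G30_SS, at 11.03 and 9.66, against 10.86 and 11.07 in G42_LGN. Of the 13 markers 2, Tnnt1 and Lef1, were called higher than in all 5 other interneuron groups, as were 1.29% of all genes. Lef1 read 6.73 in G42_LGN and at most 6.34 in any other sorted group, and this call was lost in 11 of 32 alternatives. The part of relay cells in the results was not tested. Of 5 markers of the thalamic reticular nucleus, Meis2 was called higher and Pvalb lower, while Ecel1, Six3 and Gpx3 were not called. None was called of 8 cortical pyramidal, 11 microglial, 13 endothelial and mural, 4 choroid plexus and 4 blood markers. Of 12 astrocyte markers Apoe was called higher (1.08 ± 0.37) and Glul and Slc4a4 lower, with summed intensities of 8274 to 8993 in G42_LGN against 8214 to 9883 in G42_Cg. Of 11 oligodendrocyte markers 1 was called, Mal (0.38 ± 0.09). The calls of Rgs16, Lef1, Apoe, Slc4a4 and Mal were lost with the array lot as a block. The summed astrocyte markers reached 26816 to 33897 in the unsorted cortical homogenate of the same line.

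The log2 ratio of the 3′ to the 5′ control probe sets of Gapdh, which rises as amplified RNA gets shorter, was 2.80 to 3.02 in G42_LGN and 1.75 to 2.14 in G42_Cg, with no overlap. The arrays of the 2 groups also shared no scan day and no array lot, so these cannot be told apart from the groups in a direct comparison. Arrays 2 and 3 of G42_LGN shared 1 scan day with array 1 of GIN_Hip, and on that day alone Otx2 differed between them by 6.03, Chrna6 by 3.19 and Tcf4 by -4.93. The same arrays also took part in choosing these genes. Within each group the arrays correlated at 0.98 or more over all genes, and the highest correlation between the groups was 0.94.

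**Figure D1:**
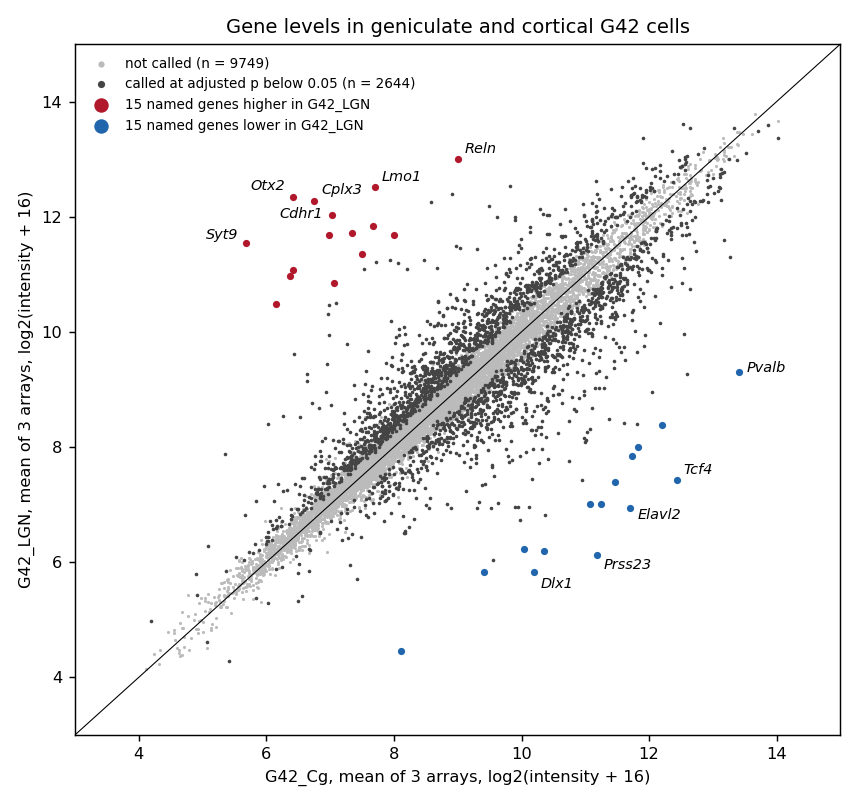
Mean level of each of 12393 genes in G42_Cg (horizontal) and G42_LGN (vertical), both log2(intensity + 16) over 3 arrays. Black points are the 2644 called genes, and red and blue points are the 15 named genes with the highest and lowest differences. Otx2, Syt9 and Cplx3 lie far above the line of equal levels, and Pvalb, Tcf4 and Prss23 far below it.

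Geniculate and cortical G42 cells differed widely. Of 12393 genes, 2644 (21.3%) were called, 1465 (11.8%) higher and 1179 (9.51%) lower in G42_LGN. Most differences were small: 239 (1.93%) were called and at least 2-fold higher, and 291 (2.35%) at least 2-fold lower. The 3 and 3 arrays did not overlap for 4955 genes (40.0%). The median difference over all genes was 0.05. The number of higher calls fell to 976 without G42_Cg array 2, all calls numbered 1635 with the Gapdh ratio as a covariate, of which 1559 were among the 2644, and 897 with the array lot as a block, of which 816 were.

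**Figure D2:**
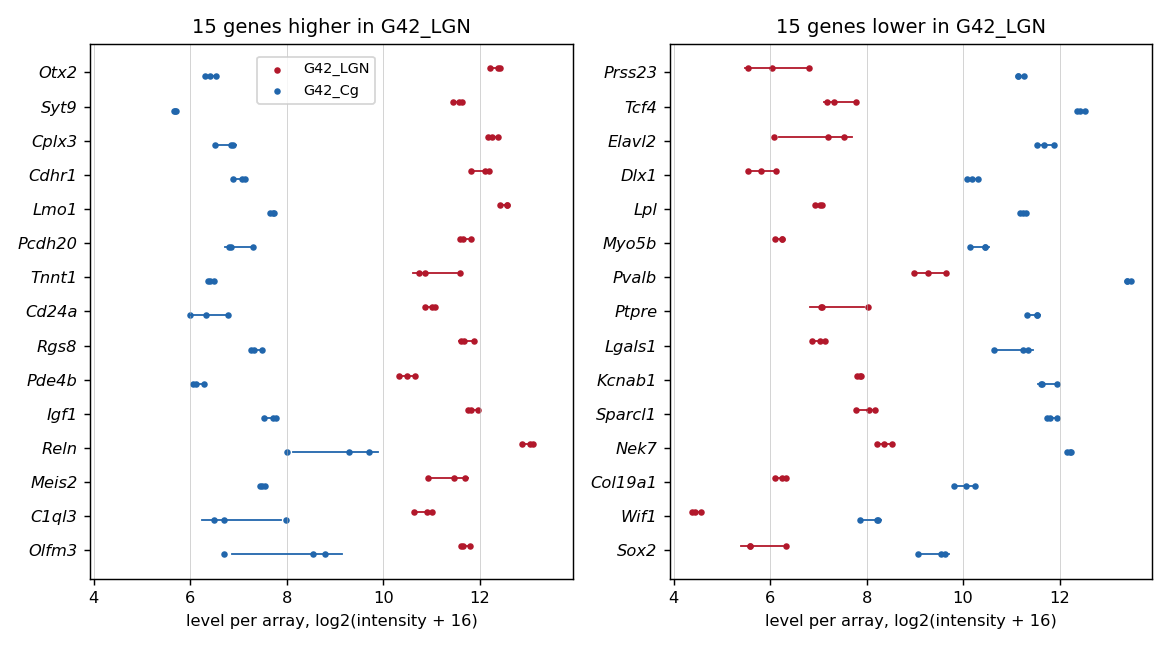
Level per array, log2(intensity + 16), of the 15 called genes with the highest differences (left) and the lowest (right) among genes whose arrays do not overlap. Points are single arrays, red for G42_LGN and blue for G42_Cg, and lines span the mean ± SD of 3 arrays. The Otx2 points lie at 12.21 to 12.43 against 6.30 to 6.53.

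Most transcription factors of midbrain and thalamic GABA neurons were higher in the geniculate cells. Of 29 such genes tested, 17 were called higher and 1 lower (Sox2), against 11.8% and 9.51% of all genes, and their median difference was 0.45. The list was chosen with earlier results of these data known, so the share is a description and no test. It also holds Lmo1, which was named for these cells from these data. The homeobox gene Otx2, which patterns the forebrain and midbrain, had the highest difference as measured. It read 12.21, 12.43 and 12.38 in G42_LGN and 6.30, 6.53 and 6.40 in G42_Cg. The groups were far apart, by 5.93 ± 0.11 (adjusted p = 5.15e-31). With intensities below 199 raised to that value the difference was 4.59, after Lmo1 at 4.77.

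Tal1, a basic helix-loop-helix factor that directs midbrain precursors to a GABA fate, read 10.51, 10.44 and 10.43 in G42_LGN and 7.04, 7.07 and 6.84 in G42_Cg. The zinc-finger gene Gata3, which acts with Tal1 in that fate, read 9.04, 9.65 and 9.62 in G42_LGN and 7.08, 6.67 and 7.09 in G42_Cg. The LIM homeobox gene Lhx1 read 9.08, 9.65 and 10.12 in G42_LGN and 6.64, 6.30 and 6.33 in G42_Cg. All 3 genes were higher in each geniculate array than in any cortical one, by 3.47 ± 0.11, 2.49 ± 0.13 and 3.20 ± 0.15 (adjusted p = 1.88e-23, 3.97e-17 and 2.02e-18). With intensities raised to at least 199 the 3 differences were 2.71, 1.69 and 1.87. The related Lhx5 was 0.95 ± 0.12 higher, a difference that was no longer called with a floor at the 25th percentile of the intensities. The TALE homeobox gene Meis2 read 10.92, 11.46 and 11.69 in G42_LGN and 7.55, 7.44 and 7.49 in G42_Cg, higher by 3.86 ± 0.26. The LIM-only cofactor Lmo1 read 12.42, 12.57 and 12.57 in G42_LGN and 7.72, 7.65 and 7.72 in G42_Cg, higher by 4.82 ± 0.21 (adjusted p = 3.07e-19). Both were separated between the groups in every array.

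Sox14, which marks mouse geniculate interneurons during their migration, and Gata2, the partner of Tal1 and Gata3 in early precursors, were picked out after their values were seen. Sox14 read 8.47, 8.53 and 8.70 in G42_LGN and 8.21, 8.27 and 8.19 in G42_Cg, and Gata2 read 8.79, 8.92 and 9.01 in G42_LGN and 8.63, 8.75 and 8.64 in G42_Cg. These adult differences were small, at 0.34 ± 0.08 and 0.24 ± 0.08 (adjusted p = 0.00293 and 0.0356), and the Gata2 call was lost in 10 of 22 alternatives, median centring among them.

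The promoters of Otx2, Tal1, Gata3 and Lhx1 are shown because these 4 genes were high together in the geniculate cells. Each is the first start listed for the gene in RefSeq (GRCm38.p6), 250 bases before to 50 after it, 5′ to 3′ on the strand of the gene. Capitals mark GATAA, the core that GATA factors bind, and CANNTG, the E-box of basic helix-loop-helix factors, each searched on both strands, where the reverse of GATAA reads TTATC. The Otx2 window is chr14:48667595-48667894 on the minus strand, the first of 4 starts listed, and Tal1 is chr4:115056176-115056475 on the plus strand, the first of 2. Gata3 is chr2:9878551-9878850 and Lhx1 chr11:84525485-84525784, both on the minus strand with 1 start listed.
Otx2: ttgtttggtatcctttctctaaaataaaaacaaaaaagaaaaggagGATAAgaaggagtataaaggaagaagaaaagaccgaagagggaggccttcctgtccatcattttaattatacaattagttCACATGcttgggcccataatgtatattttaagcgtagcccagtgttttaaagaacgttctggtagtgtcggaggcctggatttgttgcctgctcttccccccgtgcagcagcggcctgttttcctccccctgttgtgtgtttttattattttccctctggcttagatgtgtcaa
Tal1: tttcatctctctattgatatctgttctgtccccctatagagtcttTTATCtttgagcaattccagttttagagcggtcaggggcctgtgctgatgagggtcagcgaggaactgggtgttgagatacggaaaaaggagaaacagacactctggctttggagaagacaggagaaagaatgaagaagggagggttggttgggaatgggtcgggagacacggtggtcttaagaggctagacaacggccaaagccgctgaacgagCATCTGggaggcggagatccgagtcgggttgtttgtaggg
Gata3: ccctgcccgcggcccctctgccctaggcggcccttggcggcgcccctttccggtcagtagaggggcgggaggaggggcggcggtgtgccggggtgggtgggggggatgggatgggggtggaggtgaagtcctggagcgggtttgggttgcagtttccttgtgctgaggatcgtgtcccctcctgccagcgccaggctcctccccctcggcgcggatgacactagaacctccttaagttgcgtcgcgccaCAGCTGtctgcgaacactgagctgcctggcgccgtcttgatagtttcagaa
Lhx1: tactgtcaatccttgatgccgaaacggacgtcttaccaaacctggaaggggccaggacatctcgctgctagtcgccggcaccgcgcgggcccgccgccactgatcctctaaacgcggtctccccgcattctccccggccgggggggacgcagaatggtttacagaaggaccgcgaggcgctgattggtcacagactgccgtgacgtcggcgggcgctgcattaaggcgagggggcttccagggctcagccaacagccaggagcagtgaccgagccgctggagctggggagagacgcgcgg
GATAA was found in the Otx2 and Tal1 windows, 1 match each, and not in the other two. CANNTG was found once in Otx2, Tal1 and Gata3. Over the first listed promoter of 27025 genes, 25.8% held GATAA and 72.1% held CANNTG, so matches of this kind are common, and they describe letters and not binding.

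Lhx6, Sox6, Satb1 and Zeb2, factors of the medial eminence lineage, were lower in the geniculate cells. They were the 4 called lower of 7 such factors tested (57.1%, against 9.51% of all genes). Lhx8 was called higher (0.43), and Nkx2-1 and Maf were not called. Lhx6, which holds medial eminence cells to the parvalbumin and somatostatin fates, read 8.25, 8.17 and 7.94 in G42_LGN and 10.98, 11.18 and 10.89 in G42_Cg. The groups did not overlap and differed by -2.90 ± 0.11 (7.44-fold lower, adjusted p = 9.25e-21). Sox6, which acts downstream of Lhx6, read 6.66, 6.77 and 6.77 in G42_LGN and 10.20, 10.04 and 9.68 in G42_Cg, lower by 3.24 ± 0.18. Satb1 and Zeb2, which guide the maturation and migration of these cells, were also lower, at -2.91 ± 0.21 and -2.11 ± 0.26. The second, dim probe sets of Lhx6 and Sox6 differed by -0.04 and -0.11.

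Among 9 Dlx and caudal eminence factors, 2 were called lower and 2 higher (22.2% each, against 9.51% and 11.8% of all genes). The other 5 were not called, and the median difference was -0.09. Dlx1, a homeobox gene that telencephalic GABA neurons share, read 6.12, 5.81 and 5.55 in G42_LGN and 10.31, 10.08 and 10.19 in G42_Cg. The cortical arrays were all higher, and the difference was -4.37 ± 0.24 (adjusted p = 3.86e-16), or -2.44 with intensities raised to at least 199. The antisense transcript Dlx1as, which overlaps Dlx1, differed by -3.51 ± 0.31, and the 2 transcripts may share signal. Dlx6 was lower by 0.74 ± 0.17, while Dlx2 and Dlx5 were not called. Nr2f1 and Nr2f2, orphan nuclear receptors that are also caudal eminence factors, were higher by 1.63 ± 0.20 and 1.10 ± 0.12.

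Tcf4, Mef2c, Sox2, Bcl11b and Elavl2 were also lower. Tcf4, a broadly expressed basic helix-loop-helix partner, read 7.18, 7.33 and 7.78 in G42_LGN and 12.52, 12.36 and 12.42 in G42_Cg. The geniculate arrays were low in every case, and the difference was -5.001 ± 0.12 (adjusted p = 8.24e-27). All 5 other probe sets of Tcf4 were lower too, with differences from -0.37 to -5.85. Mef2c, an activity-dependent factor of maturing neurons, was lower by 3.31 ± 0.18, and its 4 other probe sets were lower. Sox2, known from stem cells and some adult neurons, read 5.58, 6.32 and 5.58 in G42_LGN and 9.62, 9.07 and 9.54 in G42_Cg and was lower by 3.58 ± 0.31. With intensities raised to at least 199 the Sox2 difference was -1.66. Bcl11b was lower by 2.36 ± 0.31. With Mef2c and Id4 it made up the 3 called lower of 10 telencephalic regional factors (30%, against 9.51% of all genes). The other 7 were not called, and the median difference was -0.25. The RNA-binding protein gene Elavl2, a neuronal splicing regulator, read 7.53, 7.19 and 6.08 in G42_LGN and 11.89, 11.54 and 11.67 in G42_Cg. It differed by -4.77 ± 0.33, and 3 of its 4 other probe sets were lower while 1 differed by 0.01.

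**Figure D3:**
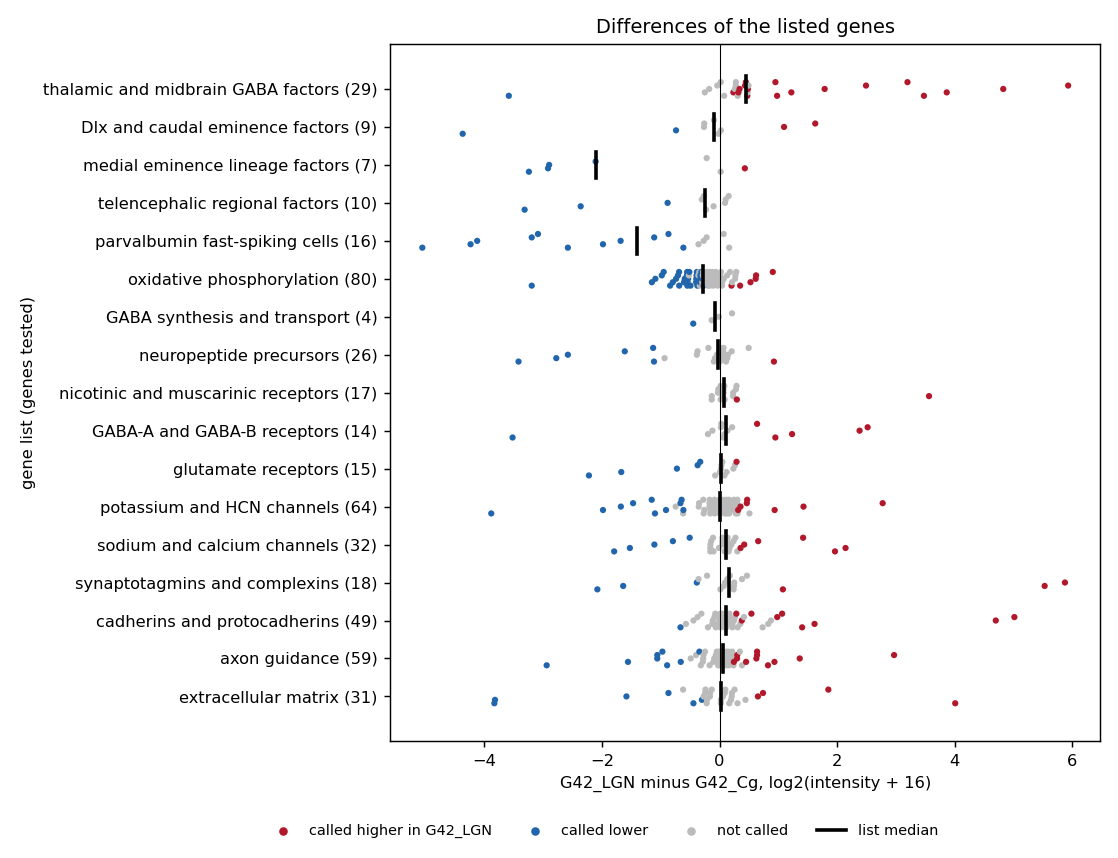
Difference G42_LGN minus G42_Cg, log2(intensity + 16), of each tested gene of 17 gene lists, with the number of genes in brackets. Red and blue points are called higher and lower, grey points are not called, and black bars are list medians. The medial eminence list has its median at -2.11 and the parvalbumin list at -1.40.

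Most genes of fast-spiking parvalbumin cells were lower in the geniculate cells. Of 16 tested, 11 (68.8%) were called lower, against 9.51% of all genes, and none higher, with a median difference of -1.40. The list was chosen with earlier results of these data known, so the share is a description and no test. It also holds Pvalb, for which the cortical cells are labelled. Pvalb itself differed by -4.12 ± 0.23 (17.4-fold lower, adjusted p = 3.91e-16). Cox6a2, a subunit of cytochrome oxidase that parvalbumin cells use, read 8.41, 8.44 and 8.37 in G42_LGN and 11.57, 11.41 and 11.82 in G42_Cg, lower by 3.19 ± 0.12. Vamp1, a vesicle fusion protein of fast synapses, read 8.70, 8.99 and 9.19 in G42_LGN and 11.95, 11.95 and 12.24 in G42_Cg. No array overlapped, and the difference was -3.09 ± 0.20, though the second probe set of Vamp1 differed by 0.29 the other way.

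The protease gene Prss23 read 6.81, 6.05 and 5.53 in G42_LGN and 11.14, 11.14 and 11.25 in G42_Cg, the lowest difference as measured at -5.05 ± 0.45. With intensities raised to at least 199 it was -3.43, and Tcf4, at -4.67, was the lowest. Lipoprotein lipase, Lpl, was 4.23 ± 0.31 lower and the tachykinin precursor Tac1 2.58 ± 0.17 lower. Kcna1, a potassium channel of axons, was 1.98 ± 0.14 lower, the heavy neurofilament Nefh 1.11 ± 0.26 lower and Kcnc1, the channel that shortens fast spikes, 0.61 ± 0.18 lower. Kcnc1 stayed bright in both groups at 12.50 ± 0.10 (SD, n = 3) in G42_LGN and 13.11 ± 0.12 in G42_Cg. Syt2, a fast calcium sensor of these synapses, was not called at its brightest probe set (0.07 ± 0.11), while its 2 other probe sets differed by -0.53 and -2.44. Of 80 oxidative phosphorylation genes 33 (41.2%) were called lower and 6 (7.5%) higher, against 9.51% and 11.8% of all genes. Their median difference was -0.27. Next to Cox6a2 the lowest were Atp5b (-1.15 ± 0.14), Uqcrfs1 (-1.09 ± 0.13) and Ndufa9 (-0.98 ± 0.16), which belong to complexes of the respiratory chain and ATP synthase.

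Cck, Npy, Cort and Sst, neuropeptide genes of cortical interneurons, were lower. Of 26 precursors, 6 (23.1%) were called lower, against 9.51% of all genes, Pnoc was called higher (0.93) and 19 were not called, with a median difference of -0.02. Cck, cholecystokinin, read 8.24, 8.31 and 8.64 in G42_LGN and 11.61, 11.88 and 11.95 in G42_Cg, lower by 3.42 ± 0.14 (adjusted p = 1.48e-19). Npy, neuropeptide Y, read 8.14, 8.24 and 8.39 in G42_LGN and 10.85, 10.99 and 11.25 in G42_Cg, lower by 2.77 ± 0.35 (adjusted p = 2.1e-07). In both genes every cortical array was above every geniculate one. Cort, cortistatin, was lower by 1.61 ± 0.20. Sst, somatostatin, was lower by 1.11 ± 0.36 (adjusted p = 0.022), a call lost with the Gapdh covariate, with the lot as a block, with interneuron arrays alone and without array 1 or 3 of G42_LGN or array 2 or 3 of G42_Cg. Vip was not called (0.50 ± 0.21).

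Among receptors for acetylcholine, Chrna6 stood alone in size. This nicotinic subunit is known from dopamine neurons and the visual pathway. It read 11.03, 11.08 and 11.15 in G42_LGN and 7.61, 7.37 and 7.60 in G42_Cg. The geniculate arrays were higher by 3.56 ± 0.12 (adjusted p = 4.92e-22). Of the 17 nicotinic and muscarinic receptors tested, 2 were called higher and none lower, and their 11.8% equals the share of all genes. The only other call was Chrm4, higher by 0.29 ± 0.09, a call lost with the Gapdh covariate and the lot as a block, among others. A second, dim probe set of Chrna6 differed by 0.09.

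GABA receptor subunits were called in both directions. Of 14 tested, 5 (35.7%) were called higher and 1 (7.14%) lower, against 11.8% and 9.51% of all genes. Gabrr2, a rho subunit that is prominent in retina, read 10.50, 9.30 and 9.56 in G42_LGN and 7.27, 7.21 and 7.33 in G42_Cg. All geniculate arrays were higher, by 2.52 ± 0.16 (adjusted p = 1.09e-14). The G42_LGN arrays spread more than this standard error shows, with an SD of 0.63. Gabra2 was higher by 2.38 ± 0.28, but by 0.66 with intensities raised to at least 199. Gabrg1 was higher by 1.23 ± 0.23, a call lost with the lot as a block and with the floor. Gabrd, the delta subunit of receptors outside the synapse, read 7.51, 7.35 and 7.42 in G42_LGN and 10.95, 11.05 and 10.82 in G42_Cg. It was lower in the geniculate cells, with a difference of -3.52 ± 0.13 (adjusted p = 6.95e-21). Of 15 glutamate receptor subunits 5 (33.3%) were called lower and 1 (6.67%) higher. The AMPA subunit Gria3 was lower by 2.22 ± 0.24 and the kainate subunit Grik1 by 1.67 ± 0.29.

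Syt9 and Cplx3 had the highest differences among the release proteins. Of 18 synaptotagmins and complexins, 3 were called higher and 3 lower, 16.7% each, against 11.8% and 9.51% of all genes. Syt9, a calcium sensor of vesicle fusion, read 11.57, 11.45 and 11.63 in G42_LGN and 5.65, 5.70 and 5.67 in G42_Cg. Every geniculate array lay far above the cortical ones, by 5.87 ± 0.31 (adjusted p = 1.17e-16). Cplx3, the complexin of retinal ribbon synapses and some GABA neurons, read 12.38, 12.18 and 12.26 in G42_LGN and 6.87, 6.51 and 6.85 in G42_Cg. It was also separated in every array, by 5.53 ± 0.34 (adjusted p = 5.21e-15). With intensities raised to at least 199 the differences were 3.80 and 4.52. Syt4 and Syt17 were lower by 2.08 ± 0.23 and 1.64 ± 0.23. Of 33 other release genes, with Cplx3 and 2 more complexins counted again, 7 (21.2%) were called higher and 6 (18.2%) lower. The vesicle protein Synpr was higher by 2.89 ± 0.24, and Rab3b, a GTPase of vesicles, was lower by 2.15 ± 0.21.

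Ion channels were called in both directions. Of 64 potassium and HCN channels 7 (10.9%) were called higher and 10 (15.6%) lower, and of 32 sodium and calcium channels 6 (18.8%) were higher and 5 (15.6%) lower, against 11.8% and 9.51% of all genes. Channels named here are single genes of these lists. Kcnc4, a fast potassium channel, read 11.08, 11.36 and 11.29 in G42_LGN and 8.37, 8.50 and 8.54 in G42_Cg, higher by 2.77 ± 0.19, while its other, dim probe set differed by -0.01. Kcnab1, an auxiliary subunit of potassium channels, read 7.87, 7.79 and 7.89 in G42_LGN and 11.94, 11.63 and 11.62 in G42_Cg, lower by 3.88 ± 0.27. Both were separated between the groups. The sodium channel subunit Scn3b was higher by 2.14 ± 0.17 and the T-type calcium channel Cacna1g, which carries thalamic burst firing, by 1.96 ± 0.17. The sodium channels Scn1a and Scn8a were lower by 1.79 ± 0.16 and 1.52 ± 0.16.

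Adhesion and guidance genes were led by a pair of cadherin relatives. Of 49 cadherins and protocadherins, 9 (18.4%) were called higher and 1 (2.04%) lower, against 11.8% and 9.51% of all genes. Cdhr1, known from photoreceptors and the olfactory bulb, read 12.18, 12.11 and 11.82 in G42_LGN and 6.89, 7.06 and 7.12 in G42_Cg. The difference was 5.01 ± 0.16 (adjusted p = 1.88e-23). Pcdh20 was higher by 4.70 ± 0.20 and Cdh8 by 1.62 ± 0.32. Of 59 axon guidance genes, 11 (18.6%) were higher and 8 (13.6%) lower, against 11.8% and 9.51% of all genes. Nrp1, a semaphorin receptor, was higher by 2.97 ± 0.24 and the ephrin receptor Epha4 by 1.36 ± 0.25. Epha5 read 7.03, 6.98 and 6.85 in G42_LGN and 10.16, 9.89 and 9.62 in G42_Cg, lower by 2.94 ± 0.26. The second probe set of Epha5 differed by -0.31.

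Of 31 matrix genes 4 (12.9%) were called higher, close to the 11.8% of all genes, and 6 (19.4%) lower, against 9.51%. Reln, the secreted protein reelin, read 13.04, 13.11 and 12.88 in G42_LGN and 9.71, 9.28 and 8.01 in G42_Cg. The cortical arrays were spread widely and lay below the geniculate ones, and the difference was 4.01 ± 0.31 (16.1-fold). The matrix proteins Sparcl1 and Col19a1 were lower by 3.83 ± 0.20 and 3.82 ± 0.20, and the second probe set of Col19a1 differed by 0.29 the other way. With intensities raised to at least 199 the differences were -3.83 and -2.29. Among secreted signals the growth factor Igf1 was higher by 4.17 ± 0.27, pleiotrophin, Ptn, by 3.49 ± 0.32 and the synaptic organiser C1ql3 by 3.79 ± 0.28. The phosphodiesterase Pde4b was higher by 4.34 ± 0.20, the signalling regulator Rgs8 by 4.37 ± 0.24, the surface antigen Cd24a by 4.61 ± 0.43, the troponin Tnnt1 by 4.65 ± 0.31 and the secreted olfactomedin Olfm3 by 3.68 ± 0.39. The last had cortical arrays at 8.53, 6.69 and 8.78, so array 2 lay apart there. With intensities raised to at least 199, C1ql3, Pde4b, Rgs8, Cd24a, Tnnt1 and Olfm3 differed by 3.02, 2.74, 3.97, 3.23, 3.32 and 3.33.

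The differences that held against every other interneuron group were fewer, and they included 9 of the 29 midbrain and thalamic factors as higher and 2 of the 7 medial eminence factors as lower. For each gene the 5 differences had to share a sign, and the highest of the 5 p-values was adjusted over all genes. Of 12393 genes 317 (2.56%) passed, 160 (1.29%) higher and 157 (1.27%) lower in G42_LGN. The 5 comparisons share the 3 geniculate arrays. With the lot as a block 42 genes passed, 41 of them among the 317, and with the Gapdh ratio as a covariate 265 passed, 259 of them among the 317.

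**Figure D4:**
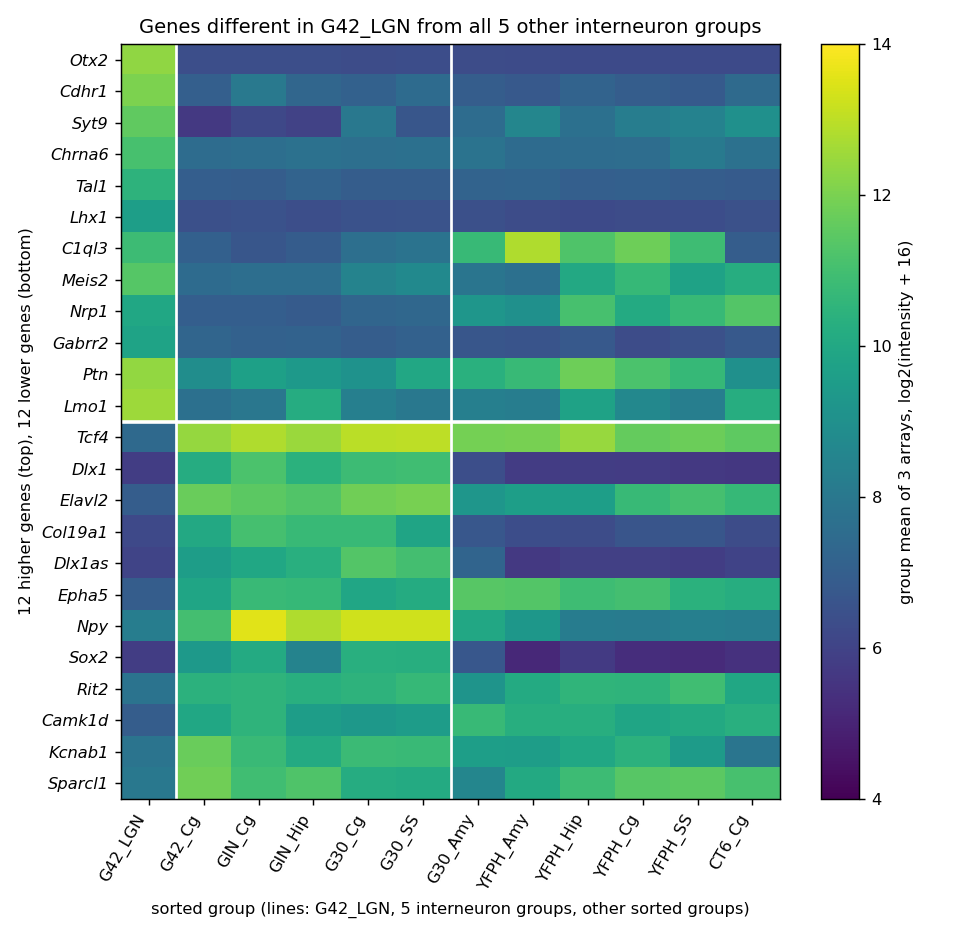
Group mean of 3 arrays, log2(intensity + 16), of the 12 genes with the highest (top) and 12 with the lowest (bottom) smallest difference between G42_LGN and the 5 other interneuron groups. Columns are the 12 sorted groups, with lines after G42_LGN and after the interneuron groups. Otx2 reads 12.34 in G42_LGN and at most 6.42 in any other sorted group.

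Otx2 exceeded G42_Cg, GIN_Cg, GIN_Hip, G30_Cg and G30_SS by 5.93, 5.94, 5.92, 5.999 and 5.98, with an adjusted p of 5.37e-31. The other 5 groups lay within 6.34 to 6.42 and had no order beyond their spread. Cdhr1 exceeded the same groups by 5.01, 4.002, 4.73, 4.93 and 4.53, and Chrna6 by 3.56, 3.46, 3.37, 3.43 and 3.41 (adjusted p = 2.31e-20 and 3.63e-21). Tal1 exceeded them by 3.47, 3.52, 3.29, 3.51 and 3.51, and Lhx1 by 3.20, 3.12, 3.22, 3.09 and 3.06. In these 5 genes no array of another interneuron group reached the lowest geniculate array.

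For other genes 1 group lay nearer to G42_LGN. Syt9 exceeded the groups by 5.87, 5.38, 5.57, 3.53 and 4.88, and its smallest difference was from G30_Cg, whose arrays spread from 6.73 to 8.95. Lmo1 exceeded them by 4.82, 4.55, 2.33, 4.19 and 4.53, with GIN_Hip at 10.19 ± 0.12 nearest. Meis2 exceeded them by at least 2.59, Ptn by at least 2.39, Nrp1 by at least 2.59 and Gabrr2 by at least 2.52. C1ql3 did so by at least 3.06, but the amygdala group G30_Amy, whose label gives no class, read 10.76 ± 0.15 against 10.85 ± 0.19 in G42_LGN. With the lot as a block, 18 of the 40 genes named here and called against every group lost the call, Nrp1, Ptn, Cplx3, Pcdh20, Pde4b, Tnnt1 and Lhx5 among the higher ones. With G30_Amy as a sixth group 12 of them lost it, among them Nrp1, C1ql3 and Pde4b.

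Cplx3 held by a smaller step. Its 5 differences were 5.53, 5.27, 5.46, 1.29 and 1.43, with an adjusted p of 0.0275, and the call was also lost without any 1 of the G42_LGN arrays, without array 2 or 3 of G30_Cg and without array 2 of G30_SS. G30_Cg read 10.98 ± 0.25 and G30_SS 10.84 ± 0.18, while GIN_Cg, GIN_Hip and G42_Cg were lower still. Several strong differences from G42_Cg did not hold. Reln read 13.01 ± 0.12 in G42_LGN and 13.48 ± 0.06, 13.02 ± 0.07, 13.10 ± 0.17 and 13.10 ± 0.21 in GIN_Cg, GIN_Hip, G30_Cg and G30_SS, so G42_Cg was the low group. Igf1 read 11.84 ± 0.11 against 11.52 ± 0.11 in G30_Cg, and Rgs8 11.71 ± 0.14 against 11.91 ± 0.15 in GIN_Hip. Cck differed from GIN_Cg and GIN_Hip by only 0.22 and 0.008, though from G30_Cg and G30_SS by -4.96 and -4.69. Scn3b differed from GIN_Cg, GIN_Hip, G30_Cg and G30_SS by -0.44, -0.06, -0.04 and 0.08. Olfm3, Cd24a, Tac1, Synpr, Gabra2 and Gabrd did not pass either, whereas Pcdh20, Pde4b and Tnnt1 passed with differences of at least 1.11, 1.28 and 1.41. The Tnnt1 call was also lost without array 3 of G42_LGN or array 1 of G30_SS.

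**Figure D5:**
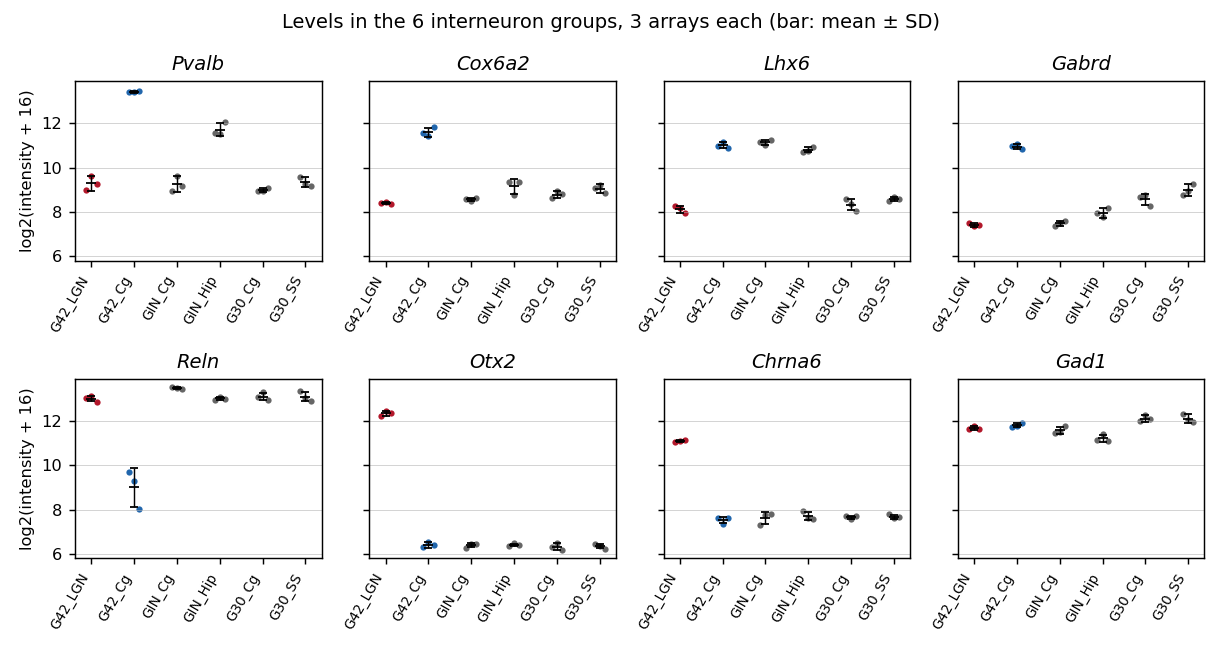
Level per array, log2(intensity + 16), of 8 genes in the 6 interneuron groups, with the mean ± SD of 3 arrays as bars. G42_LGN is red, G42_Cg blue and the other groups grey. Otx2 and Chrna6 are high in G42_LGN alone, Pvalb, Cox6a2 and Gabrd are highest in G42_Cg, and Gad1 is bright in all 6 groups. For Gad1, G42_LGN minus G42_Cg is -0.13, minus GIN_Hip 0.47 and minus G30_Cg -0.43.

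The genes low in G42_LGN against every other interneuron group were led by Tcf4, with differences of -5.001, -5.36, -5.05, -5.53 and -5.59 (adjusted p = 8.24e-27). The lowest of the other sorted groups, CT6_Cg, layer 6 pyramidal cells, still read 11.54, against 7.43 in G42_LGN. Dlx1 differed by -4.37, -5.35, -4.56, -5.05 and -5.12, and Elavl2 by -4.77, -4.55, -4.33, -4.90 and -5.01. The 5 pyramidal and amygdala YFPH and CT6 groups read 5.63 to 5.82 for Dlx1, so its low level was shared with them, unlike that of Tcf4. Npy differed by -2.77, -5.30, -4.56, -5.04 and -5.04, and Sox2 by -3.58, -4.27, -2.64, -4.49 and -4.45.

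Col19a1, the ephrin receptor Epha5, the small GTPase Rit2 and the kinase Camk1d were lower than in all 5 groups by at least 3.61, 2.94, 2.52 and 2.40. Against G42_Cg the second probe sets of Epha5 and Camk1d differed by -0.31 and -1.59, and the other probe sets of Rit2 by -1.30 and 0.20. Dlx1as was lower than in all 5 groups by at least 3.51, Kcnab1 by at least 2.27 and Sparcl1 by at least 2.13. The latter pair lost the call with the lot as a block. With G30_Amy as a sixth group, Dlx1, Col19a1, Sox2 and Sparcl1 lost it, and Dlx1 read 6.40 ± 0.98 there. Syt4 and Grik1 were also lower than in all 5 groups, by at least 2.08 and 1.67, and both lost the call with the lot as a block, Grik1 also with G30_Amy. Of the 16 fast-spiking genes none was lower than in all 5 groups. With 1.27% of all genes so called, this count says nothing particular about the list. For Pvalb, G42_LGN at 9.30 ± 0.33 lay between G30_Cg and G30_SS, and those 3 groups had no order beyond their spread. Lhx6 read 8.12 ± 0.16 in G42_LGN, 8.33 ± 0.26 in G30_Cg and 8.59 ± 0.09 in G30_SS, but 11.14 ± 0.11 in GIN_Cg.

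The genes whose means over the 12 sorted groups followed Chrna6 most closely were Otx2, Lhx1, Tal1, Lhx5 and Gata3, with Pearson correlations of 0.98, 0.98, 0.98, 0.97 and 0.97. This is a description over 12 means, of which G42_LGN is the only high one for each gene. The next highest sorted group read 6.42 for Otx2, 6.55 for Lhx1, 7.21 for Tal1, 6.85 for Lhx5 and 7.33 for Gata3, against 12.34 ± 0.11, 9.62 ± 0.52, 10.46 ± 0.04, 7.71 and 9.44 ± 0.34 in G42_LGN.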

How the data were processed

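The authors deposited a table of linear intensity values for 22690 probe sets on 42 single-colour arrays. The sources used here do not give the method that turned probe signals into the deposited intensities. Array medians ran from 286 to 330. Precision is limited by the 3 arrays in a group. Replicates came from different animals, per the series design.

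The deposited intensities were turned into log2 values after adding 16. Of the probe sets, 64 controls were left out, and 20380 of the rest had 1 gene symbol in the platform annotation, 691 had several and 1555 had none. The brightest probe set with 1 symbol stood for each of 12393 genes, with no filter on low values. One limma model (limma 3.58.1, R 4.3.3) gave each of the 14 groups a mean, using all 42 arrays and robust, trended moderation of variances (28 residual degrees of freedom). The fit was tested on simulated data.

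Named genes were the 15 genes per direction that were called, had no overlap of arrays and differed most. To these were added the 12 in each direction against every other interneuron group, up to 4 called members of each of 33 lists, the 5 genes most like Chrna6 and a set of marker genes. Lhx8, Pnoc and the uncalled members that complete a list count were named after their values were seen. The members and lists were chosen with earlier results of these data known, so the shares of a list that were called are descriptions and not tests. Alternatives were other normalizations, filters and pseudocounts, every probe set, fewer arrays, each array left out in turn, blocks for replicate number, scan day, scan year and lot, and a sixth group. The Gapdh covariate was chosen after seeing the data. Proteins were not analysed here.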

Additional observations from a re-analysis of the deposited data

Results flagged for a closer look

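Probe sets with no gene symbol or with several in the annotation were not used above, and some of them were also called. Of 2246 such probe sets, fitted together with the others, 212 were called higher and 122 lower in G42_LGN than in G42_Cg. Against all 5 other interneuron groups 14 were higher and 10 lower. These shares are smaller than those of the 12393 genes, at 11.8% and 9.51%, and at 1.29% and 1.27% against all 5 groups. The highest difference was that of 1448312_at, at 2.38 (10.95 against 8.57 on the log2 scale, adjusted p = 2.17e-13). The next was 1449556_at, at 1.80 (8.92 against 7.12, adjusted p = 0.000116). The lowest was 1450042_at, at -4.05 (7.81 against 11.85, adjusted p = 7.62e-21), which was also lower than in all 5 groups.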

How the results depend on the processing

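Of 2644 calls against G42_Cg, counts moved by over 1.5 times in few settings. Higher calls numbered 960 with a filter at the 50th percentile. Every probe set tested on its own gave 4018 calls, 1890 of them lower. The array lot as a block gave 897 calls, 313 higher and 584 lower, and 42 against every other interneuron group, 17 higher and 25 lower. It also moved the share of higher calls from 55.4% to 34.9%, and the cause was not tested. The Gapdh 3′ over 5′ covariate gave 1635 calls, 778 higher. With G30_Amy as a sixth group 198 genes passed, 87 lower. With 1 array left out, calls against G42_Cg ran from 2006 to 2284, higher ones from 976 (without G42_Cg array 2) to 1293 and lower ones from 947 to 1040. Against every other interneuron group they ran from 247 to 309, 123 to 161 higher and 121 to 156 lower.

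The replicate numbers do not pair the samples: deviations of same-numbered arrays correlated at -0.12, 0.05 and 0.08. The replicate block gave 2665 calls against G42_Cg and 317 against every other interneuron group.

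Of 92 named genes called against G42_Cg, none changed sign in 1981 values under the alternatives, and 82 values missed the threshold, most often with the lot as a block (13 genes). Against every other interneuron group 49 of 1333 values for 40 genes missed it, 18 of them with the lot as a block and 12 with G30_Amy as a sixth group. Genes that were not called did turn. Gad2 differed by 0.205 with the lot as a block, and by -0.188 to 0.143 with 1 array left out. Slc17a6 differed by 0.0189 with scan day as a random block, 0.266 with the lot, 0.0787 with the Gapdh covariate and -0.0412 to 0.0354 with 1 array left out. Six3 differed by -0.0491 with quantile normalization, -0.0135 with median centring and -0.0498 to 0.0575 with 1 array left out. Ecel1 differed by -0.298 with the lot and -0.0718 with the Gapdh covariate, which also gave -0.0312 for Prkcd and -0.13 for Slc32a1. Syt2 differed by -0.0014 with the lot.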

Other observations

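Some smaller gene groups were not described above. Of 17 calcium buffers and sensors, 3 were called higher and 5 lower (17.6% and 29.4%), against 11.8% and 9.51% of all genes. The sensor hippocalcin, Hpca, read 11.91, 11.43 and 11.51 in G42_LGN and 10.07, 10.23 and 9.67 in G42_Cg, a difference of 1.63 ± 0.24 (adjusted p = 2.31e-06). Cabp1, a calmodulin relative, was lower by 1.60 ± 0.30. Neither call was lost in any alternative that tested it.

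Among 26 monoamine and opioid receptors 2 were called higher and 2 lower, 7.69% each, which is below the 11.8% and 9.51% of all genes. The histamine receptor Hrh3 was lower by 0.75 ± 0.11 (adjusted p = 4.29e-06), and the others differed by less. Of 18 early response genes, which follow neuronal activity and cell handling, 1 was called higher and 1 lower. That is 5.56% each, also below the shares of all genes. Fos was higher by 1.14 ± 0.40 (adjusted p = 0.0361) and Dusp1 lower by 0.81 ± 0.28 (adjusted p = 0.0369). The Fos call was lost in 8 of 22 alternatives and the Dusp1 call in 7. The light neurofilament Nefl was higher by 0.68 ± 0.15 while the heavy one, Nefh, was lower, and the Nefl call was lost with the lot as a block.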
